A study of Mus musculus with 24 samples.

Results

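Bone marrow derived macrophages given interferon gamma (IFN-gamma) for 24 h were compared with the same cells kept in medium. The cells came from female Balb/c mice aged 8 to 10 weeks and were incubated with IFN-gamma or with medium alone. The labels name no dose of IFN-gamma. The comparison used 12 of the 24 arrays of the series: 6 with IFN-gamma and 6 with medium, from 3 experiments with 2 arrays of each kind. The other 12 arrays held cells given IL-4 or isoproterenol, an agonist of the beta-adrenergic receptor, and entered the fit as an estimate of the spread and for direct contrasts. A gene was included where its signal stood above background on at least 6 of the 24 arrays, which kept 10111 of 18132 genes (55.8%). The RNA was hybridised to Illumina MouseRef-8 v2.0 expression beadchips. Nothing in the labels says that the 2 arrays of an experiment came from separate cultures, or that the experiments used separate animals, so p-values measure the spread between 3 experiments and that spread may be partly technical.

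IFN-gamma is a cytokine made mainly by T cells and natural killer cells, and macrophages are one of its chief targets. It binds a receptor of the chains IFNGR1 and IFNGR2, whose kinases JAK1 and JAK2 act on transcription factors. Target genes carry the gamma-activated site (GAS), and IRF1, itself the product of such a target, binds the interferon-stimulated response element (ISRE) of others. The resulting state, often called classical activation, is known for more antigen presentation, attraction of T cells and killing of microbes inside the cell.

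Genes that serve as a check of the label separated the arrays as labelled. Ly6a, which encodes the surface antigen Sca-1, had normalized intensities of 30817, 31073 and 33574 on the lowest, median and highest IFN-gamma array, against 143, 158 and 176 on the medium arrays. Cxcl9, a chemokine that draws CXCR3-bearing T cells, had 12723, 24670 and 31738 with IFN-gamma, against 140, 144 and 154 in medium. Irf1 had 7955, 8248 and 9114 with IFN-gamma, against 1055, 1482 and 1750 in medium. For all 3 genes every IFN-gamma array was higher than every medium array. The detection limit was an intensity of 149.1, and Cxcl9 exceeded it on 1 of 6 medium arrays and Ly6a on 5 of 6, so the sizes of their rises rest on a denominator close to background.

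All 11 macrophage markers examined were above the limit on at least 6 arrays, and Lyz2, which encodes lysozyme, averaged 34870 ± 1585 with IFN-gamma and 34479 ± 1009 in medium. Of the 11 markers, 3 rose (27.3%) and 5 fell (45.5%), against 17.3% and 25.8% of all tested genes. Fcgr1 and Mertk were among the rises, and Cd68, Cd14, Csf1r and Itgam among the falls. The macrophage markers together summed to between 69039 and 73711 on IFN-gamma arrays, against 82153 to 85362 on medium arrays. Markers that define T, natural killer and B cells (Cd3e, Cd4, Cd8a, Thy1, Ncr1, Ms4a1 and Pax5) were above the limit on 0 arrays of either group. The T and natural killer list of 12 genes summed to 1694 to 1777, against 1684 to 1729. Of these genes, 6 were above the limit on at least 1 of the 12 compared arrays and 3 on at least 6. The B cell list of 7 genes summed to 1297 to 1470, against 2125 to 2497, with 4 and 3 genes above the limit likewise. Within that list Blnk, a signalling adaptor, averaged 480 ± 63 with IFN-gamma and 1329 ± 78.4 in medium. The neutrophil list of 9 genes summed to 4719 to 5806 with IFN-gamma and 2838 to 3335 in medium. Of these genes, 8 were above the limit on at least 1 of the 12 compared arrays and 7 on at least 6, while Cxcr2 was at 0 arrays. S100a8 averaged 3857 ± 246 with IFN-gamma and 1475 ± 302 in medium. S100a8 was the 1 of the 7 tested members of this list that rose, while Mpo and S100a9 fell and the list median was -0.18 on the log2 scale. On the arrays of experiment 1 alone neither fall was called (log2 -0.38 for each, limma adjusted p = 0.15 for Mpo and 0.17 for S100a9). The dendritic cell list of 9 genes summed to 1615 to 1819, against 1420 to 1486. It had 5 genes above the limit on at least 1 of the 12 compared arrays and 2 on at least 6, with Zbtb46 at 0 arrays. Of its 3 tested members 2 rose and 0 fell. Batf3 averaged 613 ± 48.8 with IFN-gamma and 312 ± 15.2 in medium, and Clec9a, near the limit, rose by a log2 of 0.26. The part of these cells in the results was not tested, and in bulk RNA fewer cells of a type and less RNA per cell cannot be told apart.

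One IFN-gamma array, replicate 2 of experiment 1, stood apart from its partner. The pair correlated at 0.978 over the tested genes on the log2 scale, while the other 11 pairs of the series correlated at 0.9968 or more. Over the same genes the array differed from its partner by a root mean square of 0.42 log2 units, but from the IFN-gamma arrays of experiment 2 by 0.19 and 0.20. Partner arrays elsewhere in the comparison differed by 0.15 to 0.18. Its distance from the 6 medium arrays was 0.51 to 0.59, so it lay on the IFN-gamma side. Genes that rose at least 2-fold were a median of 1.37 log2 units above medium of experiment 1 on this array and 1.96 on its partner, and 302 of those 351 genes (86%) moved less on it. So did 195 of 254 genes that fell at least 2-fold (76.8%), beside 5468 of all 10111 tested genes (54.1%) on this array. Why it lies near experiment 2 was not tested. Results that rest on it are given with and without it.

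The slides also matter to the comparison. All arrays of experiment 1 shared a slide, and both groups of experiment 2 shared another, whereas in experiment 3 the IFN-gamma arrays and the medium arrays were on different slides. In experiment 3 slide and treatment cannot be told apart. Signal was similar in range across the compared arrays, with median intensities before normalization of 137.7 to 172.2 and 9229 to 9298 genes above the limit on each.

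Windows of 5 genes that rose are shown because they hold matches to the elements through which IFN-gamma is known to act, and Ctsl because it was among the genes that fell furthest. Each window runs from 250 bases before to 50 after a RefSeq transcript start in the build GRCm38.p6, 5′ to 3′ on the gene's strand. Capitals mark matches to TTCNNNGAA, the GAS pattern, or GAAANNGAA, the ISRE core, or their reverse complements. Positions count from the transcript start, with no position zero. The Irf1 window held a GAS match at -90 to -82. The Cxcl9 window held an ISRE core match at -175 to -167. In Igtp a GAS match at -45 to -37 was followed by an ISRE core match at -34 to -26. Gbp5 held GAS matches at -245 to -237 and -52 to -44 and an ISRE core match at -164 to -156. In Socs1 a pair of ISRE core matches overlapped, at -83 to -75 and -77 to -69, and are printed as 1 run of capitals. A second Irf1 window, at a downstream start, and those of Tap1, Psmb9, Irf7 and Ctsl held no match, which says only that these letters are not in them.
Irf1 (chr11:53769764-53770063, plus strand): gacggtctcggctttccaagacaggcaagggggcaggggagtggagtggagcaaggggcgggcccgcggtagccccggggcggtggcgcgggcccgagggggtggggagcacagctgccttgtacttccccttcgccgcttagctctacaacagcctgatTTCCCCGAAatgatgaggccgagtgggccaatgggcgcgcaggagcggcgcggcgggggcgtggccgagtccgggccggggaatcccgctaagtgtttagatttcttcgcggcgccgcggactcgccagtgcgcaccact
Cxcl9 (chr5:92328030-92328329, minus strand): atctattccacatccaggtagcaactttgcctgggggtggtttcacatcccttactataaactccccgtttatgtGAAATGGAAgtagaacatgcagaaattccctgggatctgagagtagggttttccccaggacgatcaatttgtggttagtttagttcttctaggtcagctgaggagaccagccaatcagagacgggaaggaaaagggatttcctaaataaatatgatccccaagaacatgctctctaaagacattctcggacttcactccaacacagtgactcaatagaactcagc
Igtp (chr11:58199306-58199605, plus strand): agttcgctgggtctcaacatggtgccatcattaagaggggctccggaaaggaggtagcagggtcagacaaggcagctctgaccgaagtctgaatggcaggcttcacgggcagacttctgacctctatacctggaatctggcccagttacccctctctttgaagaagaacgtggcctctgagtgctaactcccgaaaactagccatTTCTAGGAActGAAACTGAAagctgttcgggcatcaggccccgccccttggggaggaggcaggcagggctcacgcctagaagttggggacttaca
Gbp5 (chr3:142496684-142496983, plus strand): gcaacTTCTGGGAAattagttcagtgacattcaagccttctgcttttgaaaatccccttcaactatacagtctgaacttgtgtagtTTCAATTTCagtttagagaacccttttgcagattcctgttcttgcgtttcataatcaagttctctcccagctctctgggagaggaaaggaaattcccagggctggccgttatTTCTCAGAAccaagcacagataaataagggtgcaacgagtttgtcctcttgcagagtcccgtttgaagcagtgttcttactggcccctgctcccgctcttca
Socs1 (chr16:10785487-10785786, minus strand): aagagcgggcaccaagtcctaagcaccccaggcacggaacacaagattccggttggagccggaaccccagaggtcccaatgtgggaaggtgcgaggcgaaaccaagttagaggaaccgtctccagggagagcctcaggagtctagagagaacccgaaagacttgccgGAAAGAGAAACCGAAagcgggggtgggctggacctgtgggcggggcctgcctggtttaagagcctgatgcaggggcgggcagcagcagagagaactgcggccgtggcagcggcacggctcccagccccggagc
Ctsl (chr13:64370471-64370770, minus strand): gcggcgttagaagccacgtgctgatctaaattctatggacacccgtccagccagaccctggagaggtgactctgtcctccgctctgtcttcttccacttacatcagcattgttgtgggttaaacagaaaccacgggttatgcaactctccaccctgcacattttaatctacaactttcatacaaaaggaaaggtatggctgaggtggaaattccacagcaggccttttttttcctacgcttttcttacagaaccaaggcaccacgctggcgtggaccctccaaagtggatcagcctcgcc

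Over the promoter table as a whole, 8.3% of 32851 windows held the GAS pattern and 8.56% the ISRE core. Windows were matched to 7669 of the tested genes (75.8%) and to 31 of the 49 genes that rose at least 10-fold. With fewer than 80% of genes matched, a comparison of the gene groups by motif is void, and the shares below describe only the windows in hand. Of 39 windows of genes that rose at least 10-fold, 25.6% held GAS and 43.6% the ISRE core. Of 52 windows of genes that rose 4- to 10-fold, the shares were 23.1% and 15.4%. Of 221 windows of genes that rose 2- to 4-fold, they were 8.14% and 15.8%. Windows of genes that rose by less than 2-fold held GAS in 7.14% and the ISRE core in 7.14%, and windows of genes with no call in 7.03% and 7.12%. Genes that fell at least 2-fold, with 266 windows, had shares of 8.27% for each pattern. A match is a description of the letters and not evidence of a bound site.

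IFN-gamma changed 4362 of 10111 genes (43.1%) at a Benjamini-Hochberg adjusted p under 0.05 in limma, of which 1750 rose (17.3%) and 2612 fell (25.8%). The rises were fewer but reached further: 351 genes rose and 254 fell at least 2-fold, 125 rose and 36 fell at least 4-fold, and 49 rose and 1 fell at least 10-fold. Most changes were small, with 1107 of the rises and 1939 of the falls under 1.5-fold and a median log2 fold change over all tested genes of -0.031. Genes that rose had a median intensity of 380 in medium, those that fell 590, and all tested genes 281. Of the genes that rose, 50 were at or below the limit on all 6 medium arrays, and 42 of these were above it on all 6 IFN-gamma arrays. Of those that fell, 56 were at or below the limit on all 6 IFN-gamma arrays and 22 of them above it on all 6 medium arrays. A gene at or below the limit throughout 1 group passed the filter only through arrays of the other groups. These counts therefore follow in part from the filter and are no separate support for the changes. The same holds for the absence of Gbp5 and Cfb from medium arrays, given below.

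Among the genes called, 4309 had the same sign in all 3 experiments, as did 6026 (59.6%) of all tested genes. Without replicate 2 of experiment 1, 4396 genes were called (43.5%), 1785 higher and 2611 lower, of which 4126 were also called with it. Genes that rose at least 2-fold made up 8.59% to 12% of the summed intensity of tested genes on IFN-gamma arrays, against 2.6% to 2.99% on medium arrays. Genes that fell at least 2-fold made up 2.05% to 2.5%, against 5.45% to 6.05%. The scatter of group means shows both classes.

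**Figure D1:**
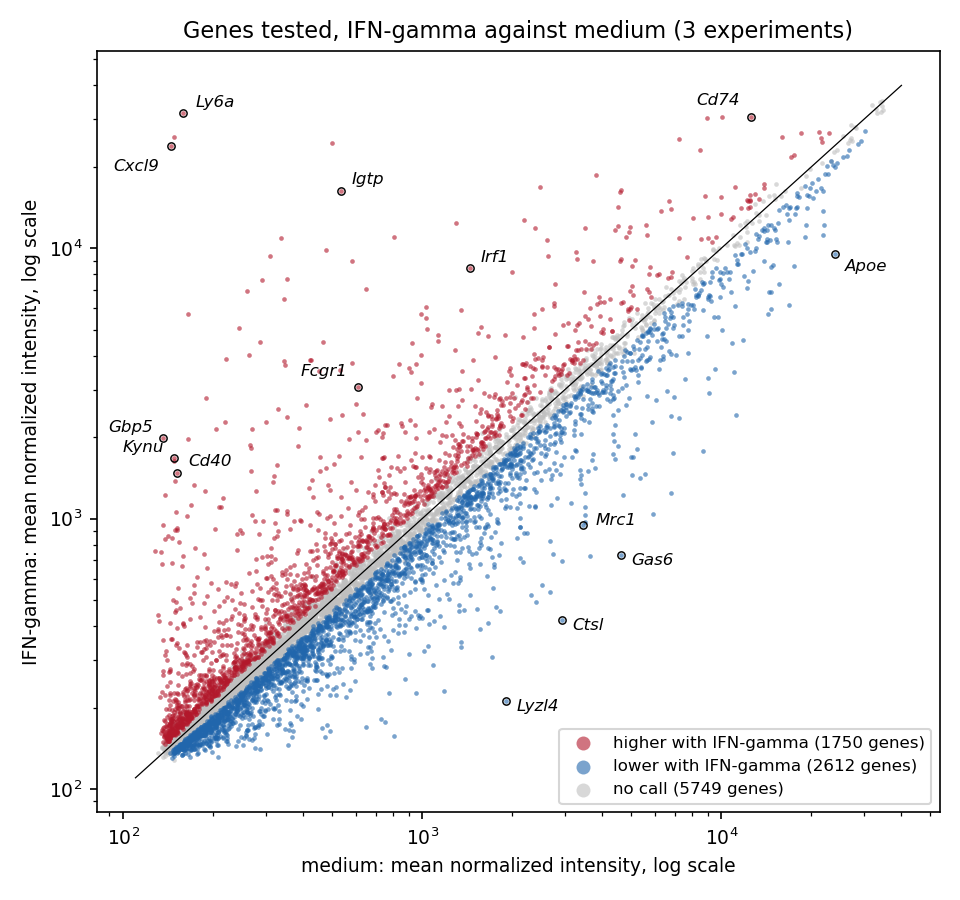
Mean normalized intensity of each tested gene over 3 experiments with IFN-gamma (vertical, log scale) against medium (horizontal, log scale), where the line marks equal values. Red points are the 1750 genes that rose, blue points the 2612 that fell and grey points those with no call; Ly6a stands furthest above the line and Lyzl4 furthest below.

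Fold changes below are IFN-gamma over medium on background-adjusted log2 values, intensities are normalized values that still contain background, and triplets give the lowest, median and highest of 6 arrays. The pathway and marker lists together held 638 tested genes out of 748 on the array. Beside their counts stand the 17.3% of all tested genes that rose and the 25.8% that fell. The lists were chosen with earlier results of these data known, so a list share above those values is a description and no test of enrichment. Overlap of arrays was looked at only for named genes and list members, many of them chosen for large changes. The share of all tested genes without overlap was not counted, so a lack of overlap describes a gene and is no separate support. A list holds few genes whose probes differ in brightness, so levels of different genes are not compared. Near-identical families (the Gbp genes, Serpina3, H2, Oas1 and Ifi20x) can share probe sequence, and values of single members of those families are uncertain in that respect.

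**Figure D2:**
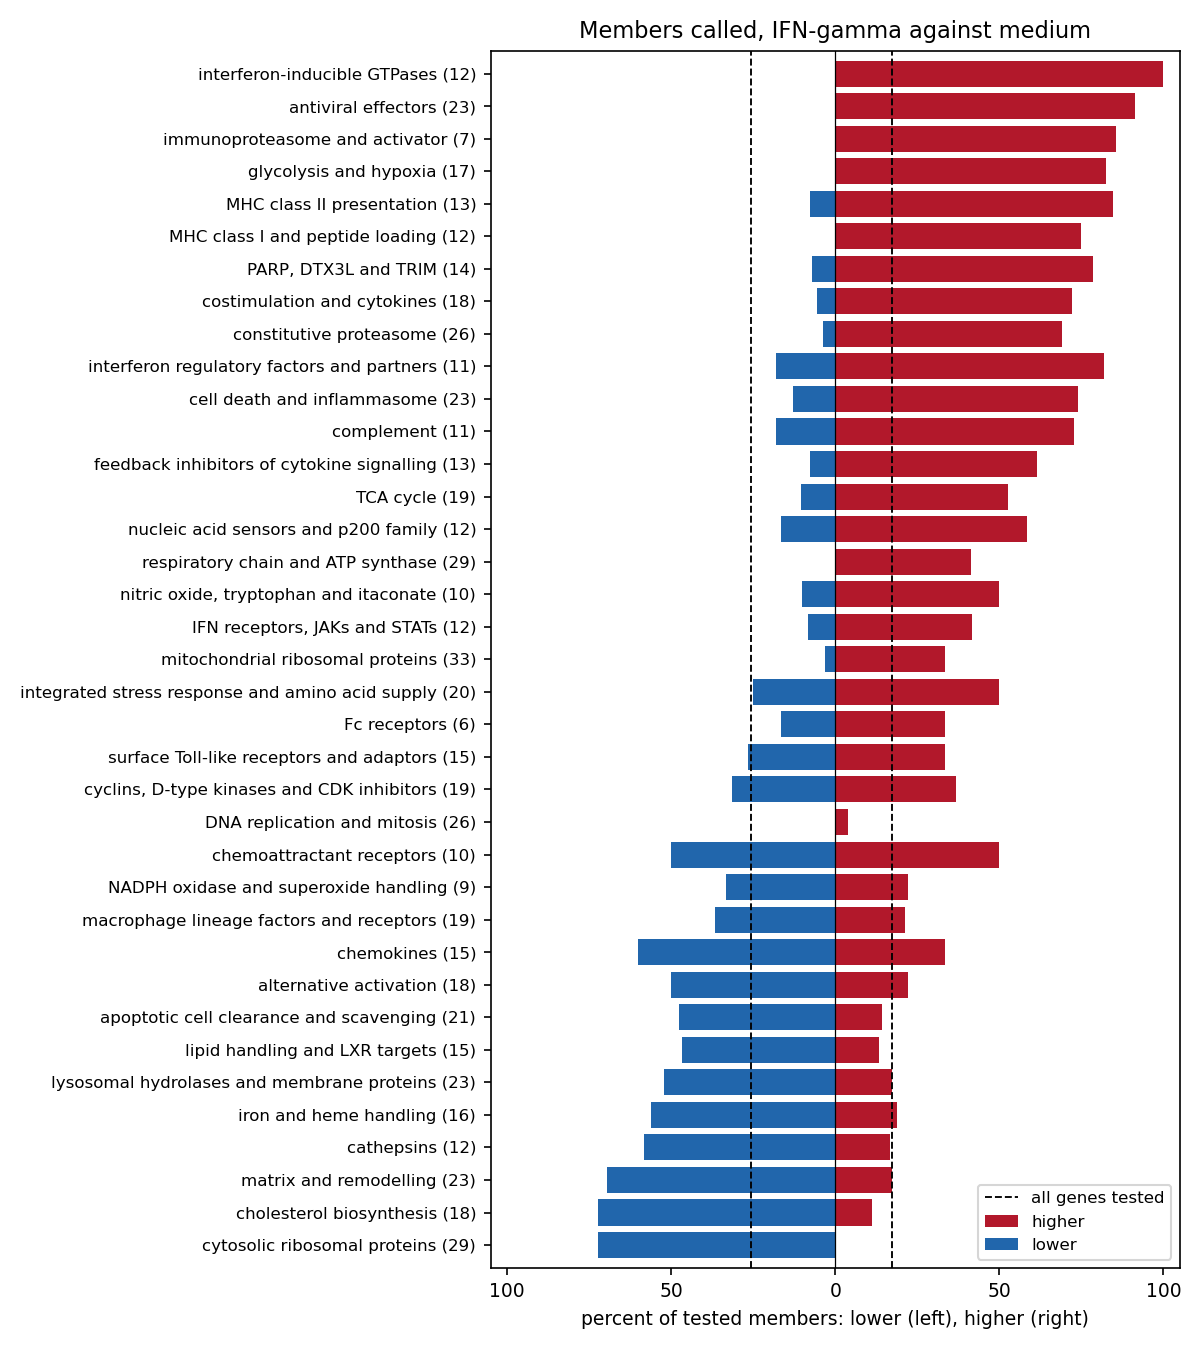
Percent of the tested members of each list (number in brackets) that rose (red, right) or fell (blue, left) with IFN-gamma against medium, with dashed lines at the 17.3% and 25.8% of all tested genes. The interferon-inducible GTPases rose as a whole list, and 72.4% of the cytosolic ribosomal proteins fell. The lists were chosen with earlier results known, so the lines serve for description only.

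Among receptors, kinases and transcription factors of the pathway, 5 of 12 tested members rose and 1 fell, with a median log2 fold change of -0.04. Stat2, a factor of the response to type I interferon, had 998, 1378 and 1852 with IFN-gamma, against 300, 322 and 330 in medium (log2 fold change 2.42 ± 0.11, SE, adjusted p = 1.6e-08, limma), and no IFN-gamma array overlapped a medium array. Jak2 rose by 0.96 and Tyk2, the kinase of the type I receptor, by 0.83 on the log2 scale. Ifngr1, the ligand-binding chain of the receptor, fell, with 889, 975 and 1134 against 1099, 1454 and 2226 (log2 fold change -0.65 ± 0.16, SE, adjusted p = 0.0058, limma), though 1 or more arrays of the groups overlapped. The Ifngr1 call was lost without experiment 1 (log2 -0.35, limma adjusted p = 0.053). Ifngr2 (log2 -0.03) and Jak1 (log2 -0.10) had no call.

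Of the interferon regulatory factors and their BATF partners, 9 of 11 rose and 2 fell. Irf7, which drives type I interferon genes, had 2246, 5455 and 6506 with IFN-gamma, against 209, 234 and 300 in medium (log2 fold change 4.77 ± 0.17, SE, adjusted p = 2.2e-09, limma). Batf2, a partner of IRF1 in macrophages, had 3493, 3868 and 4888, against 231, 265 and 284 (log2 fold change 4.34 ± 0.08, SE, adjusted p = 1.2e-11, limma). Neither gene's groups overlapped. Irf1 itself rose by 2.63 and Irf8, a lineage factor of macrophages, by 1.67 on the log2 scale. The falls were Irf3, a constitutive sensor-coupled factor, at -0.23, and Irf4, tied to the IL-4 response, at -0.54. The Irf3 call was lost without experiment 1 (log2 -0.18, limma adjusted p = 0.11).

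Inhibitors that restrain the pathway rose beside it, 8 of 13 tested, with 1 lower. Usp18, which blocks the type I interferon receptor, had 2293, 3953 and 4809 with IFN-gamma, against 373, 415 and 473 in medium (log2 fold change 3.40 ± 0.11, SE, adjusted p = 9.1e-10, limma). Socs1, the inhibitor of JAK kinases whose promoter is printed above, had 293, 396 and 486, against 145, 151 and 161. Socs3, which restrains signalling through gp130, had 412, 507 and 576, against 139, 147 and 158. In all 3 genes the groups did not overlap, but Socs3 was above the limit on 3 of 6 medium arrays and Socs1 on 5. Ptpn6, the phosphatase SHP-1, rose by 1.16 on the log2 scale.

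The interferon-inducible GTPases, which assemble on vacuoles that hold microbes, had the highest median among the pathway lists: 12 of 12 tested members rose and 0 fell, with a median log2 fold change of 4.23. Gbp2b had 23989, 24523 and 25228 with IFN-gamma, against 456, 493 and 552 in medium (log2 fold change 5.84 ± 0.10, SE, adjusted p = 8.6e-12, limma). Igtp, also called Irgm3, had 13174, 16693 and 18395, against 497, 545 and 570 (log2 fold change 5.11 ± 0.07, SE, adjusted p = 2.9e-12, limma). Both sets of arrays were far apart. Gbp5 was above the limit on 0 of 6 medium arrays and had 1271, 2047 and 2615 with IFN-gamma, at least 12.7-fold higher on the normalized intensities with medium set at the limit. The list had 14 genes on the array, and the 2 that did not pass the background filter, Gbp4 and Gbp8, were above the limit on 0 medium arrays and on 2 and 1 IFN-gamma arrays.

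Antiviral effectors rose in 21 of 23 tested members, with 0 lower and a median of 1.89. Ifit2, which binds foreign RNA, had 4270, 6730 and 8264 with IFN-gamma, against 301, 316 and 438 in medium (log2 fold change 4.54 ± 0.16, SE, adjusted p = 2.0e-09, limma). Rsad2, the radical SAM enzyme viperin, had 6628, 10917 and 15358, against 568, 731 and 1107 (log2 fold change 3.89 ± 0.20, SE, adjusted p = 3.4e-08, limma), and Cmpk2, a nucleotide kinase, rose by 3.22. Oasl1 ranged more widely than either, with 841, 2906 and 4174, against 180, 186 and 209. Its lowest IFN-gamma value was on replicate 2 of experiment 1, and without that array its log2 fold change was 4.71 in place of 4.31. Ifitm1 and Ifitm2, membrane proteins that restrict viral entry, had log2 differences of -0.04 and -0.08 and no call.

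Of 12 tested genes for nucleic acid sensing, 7 rose and 2 fell. Dhx58, a cytosolic RNA helicase of the RIG-I family, had 1599, 2448 and 2685 with IFN-gamma, against 456, 477 and 559 in medium (log2 fold change 2.41 ± 0.08, SE, adjusted p = 1.4e-09, limma), and Trex1, which degrades cytosolic DNA, had 2942, 4743 and 5311, against 882, 923 and 956 (log2 fold change 2.33 ± 0.09, SE, adjusted p = 5.8e-09, limma). The genes that fell were the endosomal RNA receptors Tlr7 and Tlr8, by log2 -1.26 and -0.62, and the Tlr8 call was lost without experiment 1 (log2 -0.32, limma adjusted p = 0.12). Tlr7 had 741, 892 and 1188, against 1668, 2212 and 2440, with no overlap. Of the PARP, DTX3L and TRIM genes, 11 of 14 rose and 1 fell, led by Parp14, a mono-ADP-ribosyltransferase, with 5878, 8657 and 9610, against 1630, 2047 and 2335 (log2 fold change 2.07 ± 0.11, SE, adjusted p = 4.3e-08, limma).

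Genes of the MHC class I route, which shows peptides from inside the cell to CD8 T cells, rose in 9 of 12 tested members, with 0 lower. Tap1, a subunit of the peptide transporter, had 1971, 2295 and 2504 with IFN-gamma, against 255, 306 and 330 in medium (log2 fold change 3.26 ± 0.07, SE, adjusted p = 5.5e-11, limma). Nlrc5, the transactivator of class I genes, had 955, 1182 and 1459, against 209, 214 and 225 (log2 fold change 2.92 ± 0.10, SE, adjusted p = 1.6e-09, limma). Groups of both genes did not overlap. B2m, the shared light chain of class I molecules, averaged 15760 ± 656 with IFN-gamma and 14969 ± 560 in medium, with a log2 difference of 0.07 and no call, and the chaperones Calr and Pdia3 had differences of 0.03 and 0.02.

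The proteasome cuts proteins into the peptides that class I molecules carry, and its immune form takes alternative catalytic subunits. 6 of the 7 genes for the immune subunits and the PA28 activator rose, with a median of 1.30. Psmb8 had 2815, 3369 and 3854, against 673, 806 and 873 (log2 fold change 2.18 ± 0.09, SE, adjusted p = 6.0e-09, limma), Psmb9 rose by 1.80 and Psmb10 by 1.42. Subunits of the standard proteasome changed less but often, with 18 of 26 higher, 1 lower and a median of 0.28. Of the 3 standard catalytic subunits that the immune ones replace, Psmb7 and Psmb5 rose and Psmb6 fell. Psmb7 had 4561, 4792 and 4971 with IFN-gamma, against 2417, 2791 and 3103 in medium (log2 fold change 0.81 ± 0.06, SE, adjusted p = 1.1e-06, limma), with no overlap. Psmb5 (log2 0.43, adjusted p = 0.01, limma) and Psmb6 (log2 -0.20, adjusted p = 0.022) changed with overlapping arrays. The Psmb6 call was lost without replicate 2 of experiment 1 (log2 -0.18, limma adjusted p = 0.061) and with slide and experiment as blocks (log2 -0.17, limma adjusted p = 0.098), and that of Psmb5 without experiment 1 (log2 0.22, limma adjusted p = 0.14).

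MHC class II genes, which show peptides from engulfed material to CD4 T cells, rose in 11 of 13, with 1 lower. Ciita, their transactivator, had 1443, 1762 and 2186 with IFN-gamma, against 198, 253 and 367 in medium (log2 fold change 3.19 ± 0.17, SE, adjusted p = 5.0e-08, limma). H2-DMb1, part of the editor that loads peptide, had 9960, 12610 and 14142, against 818, 1256 and 1979 (log2 fold change 3.40 ± 0.20, SE, adjusted p = 9.7e-08, limma). No arrays overlapped for either gene. Cd74, the invariant chain, was already bright in medium, with 27268, 30727 and 32866 on IFN-gamma arrays and 6982, 12760 and 19497 on medium arrays. The experiments differed in this group more through the medium arrays than the IFN-gamma arrays: Cd74 averaged 30542 ± 1331 with IFN-gamma and 12534 ± 5283 in medium (SD, n = 3 experiments). Its log2 differences were 0.77, 2.06 and 1.35 in experiments 1, 2 and 3, and those of H2-Ab1, a class II beta chain, were 1.45, 2.82 and 2.34.

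Cathepsins are proteases of the lysosome, and here they moved apart: 2 of 12 rose and 7 fell. Ctsc, which activates granule serine proteases, had 1207, 1250 and 1368 with IFN-gamma, against 172, 188 and 205 in medium (log2 fold change 3.33 ± 0.08, SE, adjusted p = 7.7e-11, limma). Ctsh, an aminopeptidase, had 15965, 18731 and 21679, against 3424, 3841 and 4037 (log2 fold change 2.31 ± 0.06, SE, adjusted p = 4.4e-10, limma). Ctsl, an endopeptidase, had 353, 432 and 468, against 1982, 2961 and 3612 (log2 fold change -3.00 ± 0.10, SE, adjusted p = 1.9e-09, limma). The groups of these 3 genes did not overlap, whereas Ctsd, an aspartic protease, fell by 0.29 with overlapping arrays and had no call without experiment 1 (log2 -0.26, limma adjusted p = 0.19). Ctsk, a collagenase, fell by 1.90 on the log2 scale. Ctss, the protease that trims the invariant chain in macrophages, had a log2 difference of -0.10 and no call.

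**Figure D3:**
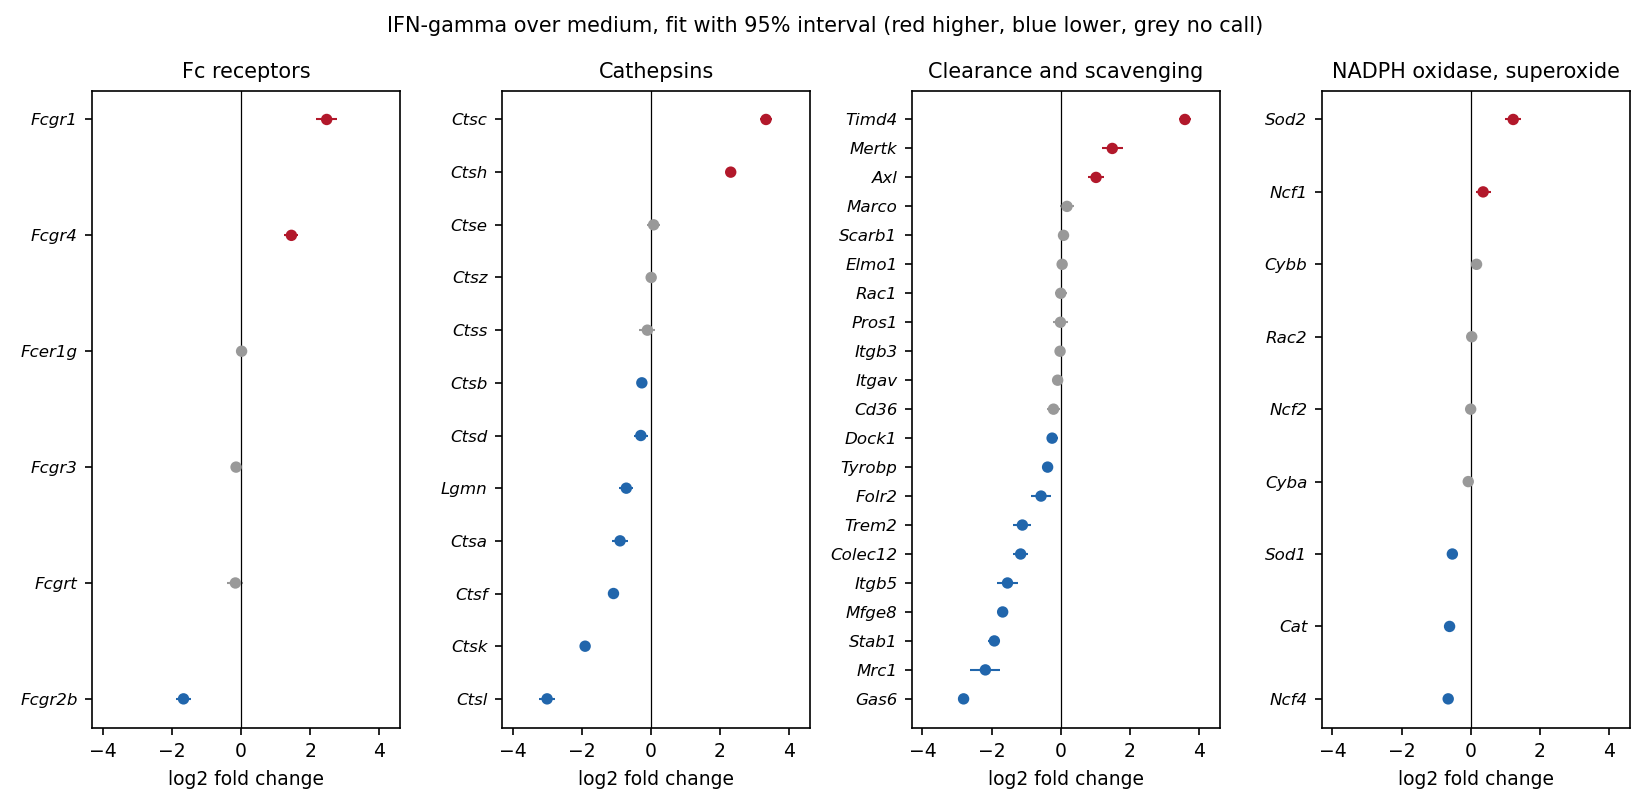
Log2 fold change of IFN-gamma over medium with its 95% confidence interval for the tested members of 4 lists, one panel each, where red members rose, blue members fell and grey members had no call. Each panel holds members on both sides of zero, among them Fcgr1 at 2.48 and Fcgr2b at -1.66.

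Chemokines were likewise divided, with 5 of 15 higher and 9 lower. The CXCR3 ligand Cxcl10 had 2134, 5372 and 9895 with IFN-gamma, against 150, 165 and 178 in medium (log2 fold change 5.71 ± 0.16, SE, adjusted p = 5.4e-10, limma). Ccl5, the T cell attractant RANTES, had 2468, 11332 and 18115, against 252, 297 and 469 (log2 fold change 5.12 ± 0.29, SE, adjusted p = 9.9e-08, limma). The spread of both was wide with IFN-gamma, yet no array reached the medium range. Ccl3, the macrophage inflammatory protein MIP-1alpha, had 1095, 1335 and 1808, against 4210, 5635 and 6128 (log2 fold change -1.99 ± 0.10, SE, adjusted p = 2.6e-08, limma), and Ccl24, an eosinophil attractant of the IL-4 state, had 202, 229 and 250, against 667, 990 and 1163. Ccl9 remained bright and fell by 0.98 on the log2 scale, with 9489, 11190 and 13024, against 20317, 22041 and 23332. Both groups of each of these falling genes were separate. Without replicate 2 of experiment 1, 5 rises became 4 and the 9 falls remained 9 in number.

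Of 10 tested receptors for chemoattractants, 5 rose and 5 fell. Fpr2, a receptor for formylated and other peptides, had 5566, 8752 and 14836 with IFN-gamma, against 255, 302 and 399 in medium (log2 fold change 5.20 ± 0.21, SE, adjusted p = 5.2e-09, limma). Cxcr4, the receptor that holds cells in bone marrow, had 449, 478 and 550, against 1851, 2511 and 2837 (log2 fold change -2.45 ± 0.09, SE, adjusted p = 3.8e-09, limma). P2ry14, a receptor for UDP sugars, rose by 2.35 on the log2 scale.

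Costimulatory molecules and cytokines rose in 13 of 18 tested members and fell in 1, Tgfb1, at -0.60. Cd40, which receives help from T cells, had 520, 1367 and 2692 with IFN-gamma, against 146, 150 and 163 in medium, where it was above the limit on 3 of 6 arrays (log2 fold change 3.88 ± 0.17, SE, adjusted p = 1.1e-08, limma). Cd274, the inhibitory ligand PD-L1, had 12527, 16369 and 19462, against 3060, 4365 and 6175 (log2 fold change 1.87 ± 0.14, SE, adjusted p = 9.7e-07, limma), and Cd86, an activating ligand, rose by 2.10. Activating and inhibitory ligands for T cells were thus both higher. Slamf8, a surface protein of activated macrophages, kept a narrow range, with 2998, 3714 and 3984, against 474, 536 and 578 (log2 fold change 2.91 ± 0.05, SE, adjusted p = 9.2e-12, limma). Tnf rose by 1.85, while Il10 had a log2 difference of 0.05 and no call, and Il6 and Il12b did not pass the background filter.

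Fc receptors bind antibody on targets. Fcgr1, the high-affinity activating receptor, had 2736, 2923 and 3517 with IFN-gamma, against 539, 598 and 724 in medium (log2 fold change 2.48 ± 0.14, SE, adjusted p = 7.7e-08, limma). Fcgr4, also activating, had 20317, 22806 and 26714, against 6682, 8618 and 10171 (log2 fold change 1.46 ± 0.09, SE, adjusted p = 2.1e-07, limma). The inhibitory receptor Fcgr2b had 635, 694 and 823, against 1651, 2160 and 2524 (log2 fold change -1.66 ± 0.10, SE, adjusted p = 9.5e-08, limma). No array overlapped in any of the 3. Fcgr3 (log2 -0.14) and Fcgrt (log2 -0.16) had no call, and the sign of each changed in experiment 2 alone.

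Complement genes rose in 8 of 11 and fell in 2. C3, the central component, had 2392, 7139 and 10671 with IFN-gamma, against 499, 653 and 774 in medium (log2 fold change 3.40 ± 0.27, SE, adjusted p = 1.4e-06, limma). Cfb, factor B of the alternative route, had 205, 666 and 1256 and was above the limit on 0 of 6 medium arrays, a rise of at least 3.98-fold on the same basis. C1qa had 1659, 1983 and 2250, against 435, 663 and 814 (log2 fold change 1.72 ± 0.11, SE, adjusted p = 1.8e-07, limma). None of these overlapped between groups. The falls were the chains of the complement receptors, Itgam at -0.65 and Itgax at -0.40.

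Genes for the clearance of dying cells fell in 10 of 21 and rose in 3. Gas6, which links exposed phosphatidylserine to TAM receptors, had 562, 737 and 918 with IFN-gamma, against 4193, 4517 and 5149 in medium (log2 fold change -2.81 ± 0.08, SE, adjusted p = 3.3e-10, limma). Mfge8, a bridge to integrins, had 3243, 3443 and 3788, against 9950, 10553 and 12848 (log2 fold change -1.68 ± 0.07, SE, adjusted p = 1.0e-08, limma). The TAM receptors Mertk and Axl were higher, Mertk with 1247, 1991 and 2619, against 585, 692 and 911 (log2 fold change 1.49 ± 0.14, SE, adjusted p = 6.6e-06, limma), and Axl by 1.02. All 4 genes kept the groups separate. Other receptors of the list fell, Itgb5, an integrin chain, by 1.54 and Colec12, a scavenger receptor, by 1.16 on the log2 scale. Timd4, a direct phosphatidylserine receptor, had 739, 1049 and 1478, against 141, 149 and 159, above the limit on 3 of 6 medium arrays. Mrc1, the mannose receptor, fell unevenly, with 398, 925 and 1471, against 2581, 3548 and 4283, and log2 differences of -2.03, -1.52 and -2.98 in the 3 experiments. The plots of single arrays show these patterns.

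**Figure D4:**
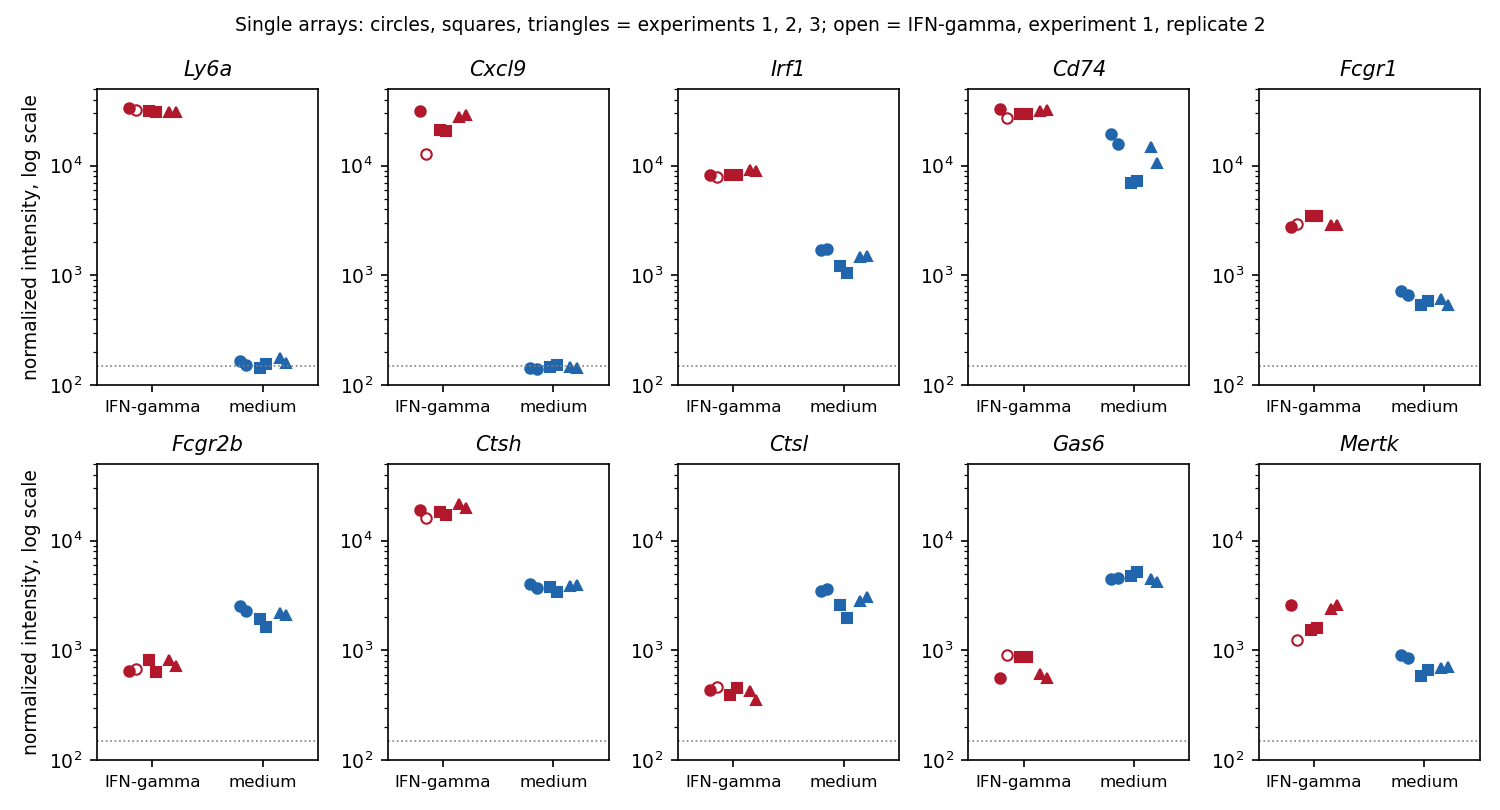
Normalized intensity on single arrays (vertical, log scale) for 10 genes, with IFN-gamma arrays in red on the left of each panel and medium arrays in blue on the right, symbols by experiment, and the dotted line at the detection limit of 149.1. In all 10 panels the groups do not overlap, a trait not counted over all tested genes. The open circle, replicate 2 of experiment 1, is nearer to medium than its partner for Cxcl9, Gas6 and Mertk.

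Among enzymes that make nitric oxide or act on tryptophan, 5 of 10 rose and 1 fell. Nos2, the inducible nitric oxide synthase, had 184, 329 and 534 with IFN-gamma, against 139, 151 and 159 in medium (log2 fold change 1.62 ± 0.12, SE, adjusted p = 1.1e-06, limma). Ass1, which regenerates its substrate arginine, had 2443, 3907 and 4571, against 445, 640 and 660 (log2 fold change 2.84 ± 0.13, SE, adjusted p = 1.7e-08, limma), while Asl, the next enzyme of that cycle, fell by 0.40. Kynu, of tryptophan breakdown, had 942, 1690 and 2408, against 138, 150 and 153 (log2 fold change 4.23 ± 0.18, SE, adjusted p = 8.2e-09, limma). Nos2 and Kynu were each above the limit on 3 of 6 medium arrays, so both fold changes have an uncertain size. Arg1 was above the limit on 0 arrays of either group.

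A list of 9 genes covered the NADPH oxidase, the other source of toxic radicals, and the handling of superoxide. Of these, 2 rose (22.2%), Sod2 and Ncf1, and 3 fell (33.3%), Sod1, Cat and Ncf4. Those shares lie near the 17.3% and 25.8% of all tested genes and are not read as a result about the oxidase. Sod2, mitochondrial superoxide dismutase, had 5465, 9303 and 11968, against 3472, 3705 and 4066 (log2 fold change 1.23 ± 0.10, SE, adjusted p = 2.1e-06, limma). Sod1, the cytosolic enzyme, had 4485, 5183 and 6199, against 6778, 7591 and 7957 (log2 fold change -0.53 ± 0.07, SE, adjusted p = 5.8e-05, limma). These 2 dismutases therefore went opposite ways with no overlap of arrays. Ncf4, a cytosolic subunit, fell by 0.65, while the catalytic Cybb had a difference of 0.17 and no call. Ncf1, another cytosolic subunit, was higher by 0.36 with overlapping arrays, and its call was lost with slide and experiment as blocks (log2 0.29, limma adjusted p = 0.079) and within slide 1 (log2 0.07, limma adjusted p = 0.71).

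Genes of cell death and the inflammasome rose in 17 of 23 and fell in 3. Mlkl, the executioner of necroptosis, had 1256, 1578 and 1834 with IFN-gamma, against 270, 319 and 400 in medium (log2 fold change 2.56 ± 0.10, SE, adjusted p = 5.9e-09, limma). Its activator Ripk3 rose by 1.21, whereas Ripk1 fell by 0.41. Casp4, the sensor of cytosolic lipopolysaccharide named Casp11 in older work, had 1032, 1202 and 1360, against 415, 433 and 453 (log2 fold change 1.64 ± 0.07, SE, adjusted p = 8.4e-09, limma), and Gsdmd, the pore it releases, rose by 0.98. Il1b overlapped between groups, with 927, 3015 and 4926, against 680, 1391 and 1878, and its log2 differences were 0.11, 1.22 and 1.85 in the 3 experiments. Of surface Toll-like receptors and adaptors, 5 of 15 rose and 4 fell. Cd14, the coreceptor for lipopolysaccharide, had 3027, 4845 and 6175, against 8740, 8920 and 9206 (log2 fold change -0.99 ± 0.15, SE, adjusted p = 2.0e-04, limma), and Tlr4 had a log2 difference of 0.18 and no call.

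Matrix and remodelling genes fell in 16 of 23 and rose in 4, with a median of -0.63. Mmp12, macrophage elastase, had 947, 1075 and 1817 with IFN-gamma, against 4231, 7196 and 8740 in medium (log2 fold change -2.52 ± 0.17, SE, adjusted p = 3.3e-07, limma). Timp2, an inhibitor of such proteases, had 620, 689 and 946, against 2757, 3679 and 4368 (log2 fold change -2.43 ± 0.09, SE, adjusted p = 2.2e-09, limma), so an enzyme and an inhibitor fell alike. Growth factors fell in part: Pdgfa had 298, 384 and 535, against 1232, 1458 and 2035 (log2 fold change -2.23 ± 0.10, SE, adjusted p = 1.7e-08, limma), and Igf1 fell by 1.71. Vegfa, the angiogenic factor, rose by 0.83 on the log2 scale.

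Lysosomal hydrolases and membrane proteins fell in 12 of 23 and rose in 4. Ppt1, which removes palmitate from proteins, had 3608, 4237 and 4505 with IFN-gamma, against 1159, 1321 and 1395 in medium (log2 fold change 1.75 ± 0.07, SE, adjusted p = 5.5e-09, limma). Arsb, a sulfatase of glycosaminoglycans, had 634, 801 and 1018, against 1377, 1708 and 2548 (log2 fold change -1.25 ± 0.10, SE, adjusted p = 1.9e-06, limma). The groups of both were separate. Cd68, a macrophage marker of the lysosomal membrane, had 9427, 12389 and 14771, against 20440, 22065 and 22949 (log2 fold change -0.88 ± 0.09, SE, adjusted p = 1.2e-05, limma).

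Lipid genes fell in 7 of 15 and rose in 2. Ch25h, which makes 25-hydroxycholesterol, had 816, 1181 and 2242 with IFN-gamma, against 134, 165 and 252 in medium (log2 fold change 3.59 ± 0.16, SE, adjusted p = 1.5e-08, limma). Apoe, a lipoprotein component, had 6311, 9448 and 13228, against 18876, 24526 and 28057 (log2 fold change -1.36 ± 0.08, SE, adjusted p = 1.2e-07, limma). Neither gene's arrays overlapped, and the medium arrays of Ch25h were above the limit on 4 of 6. Cholesterol synthesis fell in 13 of 18 genes and rose in 2. Sqle, which makes squalene epoxide, had 342, 415 and 575, against 747, 953 and 1270 (log2 fold change -1.37 ± 0.09, SE, adjusted p = 2.4e-07, limma), and Cyp51, a later demethylase, fell by 1.25.

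Iron genes fell in 9 of 16 and rose in 3, on the routes of both entry and exit. Tfrc, the transferrin receptor, had 587, 903 and 1467 with IFN-gamma, against 2921, 3624 and 4023 in medium (log2 fold change -2.06 ± 0.16, SE, adjusted p = 1.1e-06, limma). Slc40a1, the exporter ferroportin, had 5053, 5768 and 6321, against 12481, 14147 and 16913 (log2 fold change -1.34 ± 0.08, SE, adjusted p = 1.4e-07, limma). The groups were apart in both genes. Trf, transferrin itself, had 1300, 1785 and 2309, against 4561, 7670 and 13590, with a wide spread in medium. Slc11a2, an importer, fell by 0.41 with all arrays, but without replicate 2 of experiment 1 its log2 difference was -0.28 and its limma adjusted p was 0.053.

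Glycolysis and hypoxia genes rose in 14 of 17, with 0 lower and a median of 0.32. Pfkp, a phosphofructokinase, had 1718, 2162 and 2276 with IFN-gamma, against 530, 615 and 723 in medium (log2 fold change 1.90 ± 0.07, SE, adjusted p = 2.2e-09, limma). Hif1a, the hypoxia factor that drives the pathway, had 528, 690 and 1044, against 265, 300 and 307 (log2 fold change 1.49 ± 0.11, SE, adjusted p = 1.0e-06, limma). Both were separate, and Hk3, a hexokinase, had a tight 13762, 13840 and 14196, against 6358, 6730 and 7206. A list of citric acid cycle enzymes that also held cytosolic forms had 10 of 19 higher and 2 lower, and both falls were isocitrate dehydrogenases. Of these 2, only Idh3g belongs to the cycle. Idh1, the cytosolic NADP enzyme, had 1459, 1729 and 1889, against 3509, 5027 and 6311 (log2 fold change -1.57 ± 0.12, SE, adjusted p = 8.2e-07, limma), and Idh3g, of the mitochondrial NAD enzyme, fell by 0.41, while Mdh2, malate dehydrogenase, rose by 0.60. Without replicate 2 of experiment 1, 4 genes of that list fell.

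Respiratory chain and ATP synthase genes rose in 12 of 29, with 0 lower and a median of 0.15. Ndufs3, of complex I, had 4180, 4286 and 4535 with IFN-gamma, against 2431, 2625 and 2879 in medium (log2 fold change 0.72 ± 0.06, SE, adjusted p = 3.9e-06, limma). Proteins of the mitochondrial ribosome rose in 11 of 33 and fell in 1. The cytosolic ribosome went the other way, with 21 of 29 lower, 0 higher and a median of -0.26. Rps13 had 9924, 10877 and 11382, against 13704, 14242 and 14836 (log2 fold change -0.40 ± 0.05, SE, adjusted p = 6.3e-05, limma), a change well under 1.5-fold with no overlap. Within slide 1 alone 5 of the 29 cytosolic ribosomal genes fell, and within slide 2 alone 14 did. Within slide 1 without replicate 2 of IFN-gamma 14 fell.

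Genes of DNA replication and mitosis gave the least settled result. Of 26 tested, 1 rose, Tpx2, a spindle factor, and 0 fell. In experiment 1 all 26 were higher with IFN-gamma, in experiment 2 24 were and in experiment 3 1 was, with list medians of 0.50, 0.38 and -0.69 on the log2 scale. With replicate 1 alone standing for IFN-gamma in experiment 1, 3 of 26 were higher and the median was -0.36. The list mean on single arrays was 7.89 and 9.37 with IFN-gamma in experiment 1, against 8.2 and 8.21 in medium. In experiment 2 it was 9.38 and 9.51, against 9.0 and 9.21, and in experiment 3 8.18 and 8.12, against 8.6 and 8.75. Replicate 2 of experiment 1 thus had the level of experiment 2.

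Plk1, a mitotic kinase, had 195, 693 and 1361 with IFN-gamma, against 360, 692 and 1206 in medium, and Rrm2, a subunit of ribonucleotide reductase, had 200, 486 and 925, against 227, 340 and 558. Their arrays overlapped throughout. Without replicate 2 of experiment 1, 3 members fell, Ccnb1, Cdc20 and Plk1, by log2 differences of -0.68, -0.82 and -0.91 (limma adjusted p = 0.031, 0.022 and 0.030), and 0 rose. Tpx2 then had a log2 difference of 0.28 (adjusted p = 0.1, limma). Within slide 2, which holds experiment 2, 19 rose and 0 fell, and with slide and experiment as blocks 7 rose and 0 fell. Within slide 1 without replicate 2 of IFN-gamma, 0 rose and 11 fell. The direction for this list therefore differs with the experiment and with 1 array, as the plot of list means shows.

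**Figure D5:**
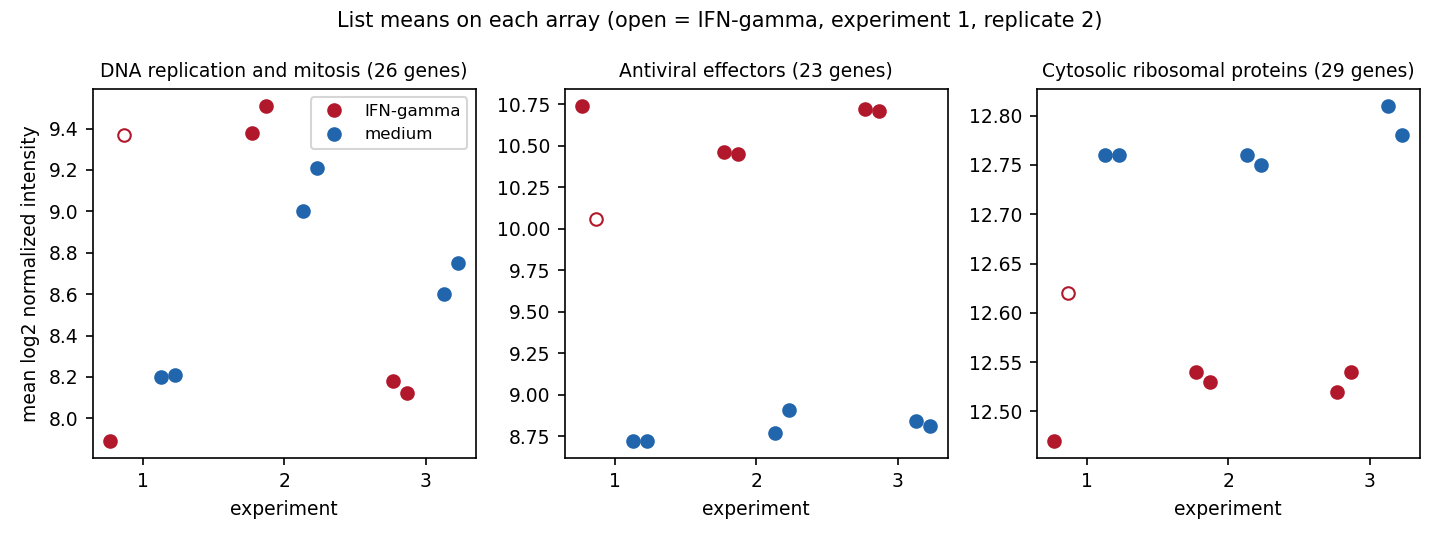
Mean log2 normalized intensity of the tested members of 3 lists on each array (vertical) by experiment (horizontal), with IFN-gamma in red on the left of each experiment and medium in blue on the right. For DNA replication and mitosis the open circle, replicate 2 of experiment 1, lies at 9.37 beside the arrays of experiment 2, while antiviral effectors and cytosolic ribosomal proteins keep IFN-gamma and medium apart in all 3 experiments.

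Regulators of the entry into the cycle moved in both directions, with 7 of 19 higher and 6 lower. Cdkn1c, the CDK inhibitor p57, had 219, 324 and 388 with IFN-gamma, against 1239, 1801 and 2224 in medium (log2 fold change -2.82 ± 0.10, SE, adjusted p = 2.8e-09, limma). Rbl1, the pocket protein p107, had 634, 874 and 993, against 281, 289 and 426 (log2 fold change 1.65 ± 0.11, SE, adjusted p = 3.7e-07, limma). Both were separate. All 3 D cyclins rose, Ccnd3 by 1.19, Ccnd2 by 0.85 and Ccnd1 by 0.74, and so did the inhibitor Cdkn1a, by 0.49. Ccnd1 had overlapping arrays and log2 differences of 1.36, 0.78 and 0.08 in experiments 1, 2 and 3. In experiment 1 it had 2055 and 5285 on the IFN-gamma arrays, the second being replicate 2, against 1274 and 1366 in medium. Its log2 difference was 0.51 without replicate 2 of experiment 1, and its call was lost without experiment 1 (log2 0.43, limma adjusted p = 0.084) or experiment 2 (log2 0.72, limma adjusted p = 0.051).

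Lineage factors and receptors of macrophages rose in 4 of 19 and fell in 7. Cebpa, a myeloid lineage factor, had 234, 264 and 308 with IFN-gamma, against 376, 481 and 562 in medium (log2 fold change -1.04 ± 0.09, SE, adjusted p = 3.7e-06, limma), and Csf1r, the receptor for the growth factor of these cells, fell by 0.55. Klf2, a factor that limits inflammation, had 815, 946 and 1127, against 455, 510 and 552 (log2 fold change 1.02 ± 0.12, SE, adjusted p = 3.1e-05, limma). Spi1, the lineage factor PU.1, had a difference of 0.05 and no call. Genes known from alternative activation by IL-4 fell in 9 of 18 and rose in 4. Egr2, one of its early factors, had 655, 786 and 1197, against 1895, 2058 and 2191 (log2 fold change -1.41 ± 0.11, SE, adjusted p = 1.5e-06, limma), and Pparg fell by 1.44, while Retnla and Arg1 were at or below the limit on all 12 arrays.

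In the integrated stress response and amino acid supply, 10 of 20 rose and 5 fell. Psat1, of serine synthesis, had 1154, 1600 and 2433 with IFN-gamma, against 534, 745 and 1001 in medium (log2 fold change 1.22 ± 0.15, SE, adjusted p = 4.3e-05, limma). Trib3, a target of ATF4, had 259, 298 and 337, against 177, 186 and 193 (log2 fold change 0.97 ± 0.06, SE, adjusted p = 1.3e-07, limma). Herpud1, a component of protein quality control in the endoplasmic reticulum, had 1046, 1135 and 1227, against 1746, 2205 and 2441 (log2 fold change -0.93 ± 0.07, SE, adjusted p = 1.2e-06, limma). Each kept its groups apart.

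Some of the largest movements were of genes outside these lists. Serpina3g, a serine protease inhibitor, had 23813, 25869 and 27089 with IFN-gamma, against 137, 146 and 161 in medium, where it was above the limit on 3 of 6 arrays (log2 fold change 8.35 ± 0.18, SE, adjusted p = 5.5e-11, limma). Calhm6, of the calcium homeostasis modulator family, had 5398, 6718 and 8837, against 229, 257 and 295 (log2 fold change 5.16 ± 0.11, SE, adjusted p = 2.7e-11, limma). Zyx, zyxin of focal adhesions, was bright in both groups, with 26561, 30411 and 33214, against 8575, 8921 and 9314 (log2 fold change 1.77 ± 0.07, SE, adjusted p = 6.0e-09, limma). All were free of overlap. Lyzl4, a lysozyme-like gene, was the only gene to fall at least 10-fold, with 150, 206 and 287, against 1547, 1886 and 2423 (log2 fold change -3.78 ± 0.16, SE, adjusted p = 7.8e-09, limma). Htr2b, the serotonin receptor 2B, had 140, 150 and 182, above the limit on 3 of 6 IFN-gamma arrays, against 714, 781 and 970. Emp1, an epithelial membrane protein, had 1416, 2284 and 3857, against 10479, 11338 and 11678 (log2 fold change -2.34 ± 0.12, SE, adjusted p = 2.8e-08, limma), and Anxa3, an annexin, had 5182, 6099 and 7513, against 16075, 16696 and 17652 (log2 fold change -1.46 ± 0.07, SE, adjusted p = 2.9e-08, limma).

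IFN-gamma was also set directly against the other activators, and these contrasts use the same 6 IFN-gamma arrays. Against IL-4, 4442 of 10111 genes differed (43.9%), 1885 higher and 2557 lower, and against isoproterenol 4644 differed (45.9%), 1936 higher and 2708 lower. Mrc1 differed by a log2 of -3.29 from IL-4 and -2.47 from isoproterenol (limma adjusted p = 1.0e-07 and 1.1e-06). Ctsl differed by -3.13 from IL-4 and -3.67 from isoproterenol (limma adjusted p = 1.0e-09 and 4.1e-10). Lyzl4 differed by -3.68 and -4.83. Igtp was higher by 5.35 and 5.08, and Fpr2 by 5.89 and 5.20. These genes were picked for the same sign against medium and both other activators, so that agreement was fixed by the choice. Of 1717 called genes that rose in all 3 experiments, 1353 were called higher than with both other activators. Of 2592 called genes that fell in all 3, 1969 were called lower than with both.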

How the data were processed

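Total RNA was labelled with biotin and hybridised to Illumina MouseRef-8 v2.0 beadchips, per the labels. The deposited gene table holds intensity on a linear scale, 1 row per gene, read with GenomeStudio per the submitters' processing notes; the version, and how the authors joined 25697 probes into 18132 genes, are not given in the sources used here. Its values are nearly the same set on every array, as after quantile normalization by the authors, which holds the overall signal equal between arrays, and no background was subtracted. From there, 16965 rows were matched to RefSeq symbols (2660 through a synonym) and 1167 kept the file's name. The detection limit of 149.1 lies 1.645 SD above the background mode of 137.3, and 10111 genes above it on at least 6 arrays were tested after normexp correction with an offset of 50. The 2 arrays of an experiment were averaged, and limma 3.58.1 in R 4.3.3 fitted 12 values of 4 groups with experiment as a block. SDs are over 3 experiments, SE is that of the fit, and p-values are Benjamini-Hochberg adjusted over all tested genes.

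The pairing by experiment comes from the labels, which give each array an experiment number. Named genes were the 15 largest rises and falls by fold, the 10 largest each way by intensity, up to 5 of each list by size of change with members contrasted by role, the 3 check genes, and the 10 most different from the other activators each way. The members and lists were chosen with earlier results of these data known. Some further list members, such as Ccnd1, Psmb6, Ctsd, Itgb5 and Colec12, were named after their values were seen. On simulated data the fit recovered 102 of 102 genes changed by a log2 of 1 and 85 of 98 changed by 0.5, with 5 false calls among 10111 genes. The simulated noise was independent, with no slide effect and no discordant array, and far fewer genes changed than were called here. These figures therefore check the code and do not give the recovery or false calls in the real data. Alternatives covered the background step, offset, filter, block, slide, probe table, left-out experiments and replicate 2 of experiment 1. Leaving that array out within slide 1 and in the fit with slide blocks was chosen after seeing the data. Precision is limited by the number of arrays.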

Additional observations from a re-analysis of the deposited data

Results flagged for a closer look

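In 3 of the pathway lists, replicate 2 of experiment 1 lay apart from the other 5 IFN-gamma arrays, its gap to them being over 0.625 of the group's range. The chemokine list had a mean log2 intensity of 10.4 on it, against 10.6 to 10.7 on the others, the nucleic acid sensor and p200 list 8.75, against 8.96 to 8.98, and the lipid list 9.88, against 9.99 to 10.0. In 74 pairs of list and group, these 3 were all on this array. Of 98 pairs of named gene and group, D12ERTD647E met the same criterion, at an intensity of 1420 on this array, against 869 to 1070 on the other IFN-gamma arrays. Such a gap arises by chance in about 1 of 20 groups.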

How the results depend on the processing

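The count of 4362 genes lay between 3221 and 5682 in the other settings except within slide 1, where 2488 were called on single arrays and 3482 without replicate 2 of IFN-gamma. The blocked fit that paired single arrays by experiment and replicate number called 4900 genes, and without a replicate block 3669. Leaving out experiment 1, 2 or 3 gave 3221 to 3727 genes, 3318 to 3681 for the contrast with IL-4 and 3577 to 4029 for that with isoproterenol. No background step gave 4313, the fit of only the groups compared 3231, slide and experiment as blocks 3999, and 5682 probes were called in the deposited values per probe, a larger number of tests. Signs changed for 6 of 202 named genes, all with no call: Fcgrt (log2 0.11 within slide 2, and -0.30 to 0.03 with an experiment left out), Fcgr3 (0.06 within slide 2), Rrm2 (0.00 without replicate 2 of experiment 1, and -0.28 within slide 1 without it), Hmgb2 (-0.14 in that last setting), Cdc20 (0.02 with slide blocks, 0.37 within slide 1, and -0.73 to 0.15 with an experiment left out) and Plk1 (0.05 with slide blocks, 0.37 within slide 1, 0.07 within slide 2, and -0.71 to 0.22 with an experiment left out). The 202 leave out the further members named after their values were seen. Among those, the sign changed for Psmb6, which was called lower with all arrays. Its log2 difference was 0.01 within slide 1 without replicate 2 of IFN-gamma. The cause was not tested. Of 202 named genes, 197 kept direction and call without replicate 2 of experiment 1, and 181 within slide 1. Among the further members named, calls were lost within slide 1 for Itgam, Mpo, Psmb6, S100a9 and Vegfa. Within slide 2 they were lost for Csf1r, Irf3, Irf4, Mpo, Psmb5 and Tlr8. Genes near the limit have uncertain fold sizes, and dim genes were not measured.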
